A study of Mus musculus with 10 samples.

Results

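The Six-Eya genes measured here were Six2, Six3, Six4, Six5, Eya1, Eya2, Eya3 and Eya4. They were read through every non-control probe that the array design assigns to one of these names, which gave 11 probes for 8 genes out of 55681 probes with 34650 names. Six2 had 3 probes, Six3 had 2, and the other 6 genes had 1 each. A probe was tested when it was well above background, a mark set by the scanner software, on both replicates in 1 or more of the groups. Of the 11 probes 10 met this, as did 39819 probes in all.

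All cells came from mice carrying a Six2-GFP transgene on a C57BL6J/ICR background. The labels give the tissue of every sample as embryo. E11.5 progenitors were GFP-positive cells sorted from embryos at E11.5, and P0 progenitors were GFP-positive cells at P0, the day of birth. The GFP-negative cells of that age are called P0 non-progenitors. The 8-day culture and the 19-day culture were E11.5 GFP-positive cells grown in conditioned medium for 8 or 19 days. Each group had 2 arrays. The labels do not say which promoter drove GFP or how the transgene was built, whether the cultured cells were sorted again, or whether a pair of replicates shares a litter or culture, so the p-values measure the spread between these samples, which may be technical. Every group carried the transgene, so signal from it and from the resident genes cannot be told apart.

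Six-family proteins are homeodomain transcription factors, and Eya proteins are coactivators that bind them, carry a phosphatase domain and do not bind DNA themselves. In the embryonic kidney Eya1 acts upstream of Six2, which keeps the nephron progenitors of the cap mesenchyme self-renewing and holds back the differentiation that Wnt signals start. Six3 is best known from the eye and forebrain, where it represses Wnt genes.

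Each probe is a 60-base oligonucleotide, and what it reports depends on its letters. The last 30 bases of the leading probe of each gene, that with the highest mean, are shown because 1 of the 8 differs in kind from the rest. Capitals mark a run of alternating T and G.

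Six2: gggagatatttctgcttttattttataata
Six3: cagacagatacacacacaagtccatacaca
Six4: ttgttattctgcatgttaaagctggaattc
Six5: gagagaccagggtggcctagggacagccct
Eya1: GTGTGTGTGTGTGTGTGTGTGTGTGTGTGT
Eya2: gcattcaataaaaaccacgtttacatttta
Eya3: aatgttatatgtaatgggaactatcttata
Eya4: aaatatggttggaatattttaatactaata

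Only the Eya1 sequence is a repeat, and its values are given apart for that reason. The leading probes lie on mouse assembly mm9 at chr17:86083634-86083693 (minus strand) for Six2, chr17:86023349-86023408 (plus) for Six3, chr12:74201246-74201305 (minus) for Six4 and chr7:19683437-19683496 (plus) for Six5. Those of the Eya genes lie at chr1:14159982-14160041 (minus) for Eya1, chr2:165597072-165597131 (plus) for Eya2, chr4:132280589-132280648 (plus) for Eya3 and chr10:22824002-22824061 (minus) for Eya4. Which exon each probe falls in was not analysed here.

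Values are log2 intensities minus the array's 75th percentile, so that 0 is the 75th percentile and 1 unit is a doubling. A level of one probe cannot be set against that of another. Of 59305 non-control spots per array, 60.4% to 69.8% were well above background, and the number of arrays limits the precision. On slide 1 were the arrays of uncultured cells and 8-day replicate 1. On slide 2 were 8-day replicate 2 and both 19-day arrays. The 19-day culture thus never shared a slide with E11.5 progenitors or with either P0 group. Cells were measured in bulk, so fewer cells of a type and less RNA per cell cannot be told apart.

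At birth the Six-Eya genes that passed were all higher in the GFP-positive cells. Of the 10 tested probes 4 were higher in P0 progenitors than in the GFP-negative cells, those being both bright Six2 probes and the probes of Six3 and Eya4, and none was lower. Over all tested probes 7.09% passed, 3.64% of all as higher. The median log2 change of the member probes was 2.74, against 0.12 over all probes. The fractions were sorted on a Six2 reporter, so the Six2 calls check the sort, and the count and median include them. Apart from Six2, the genes that passed were Six3 and Eya4. A probe passed when its adjusted p in limma, with the Benjamini-Hochberg method over all 39819 probes, was under 0.05. Between P0 and E11.5 progenitors no member probe passed (3.47% of all probes did). The count was 0 under every alternative run, and 1 member, the second Six2 probe, had an unadjusted p under 0.05.

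In culture the pattern was 1 rise followed by falls. Six3 alone was higher in 8-day culture than in E11.5 progenitors, where 4.48% of all probes passed, 2.65% as higher. After 19 days 4 member probes were lower than in E11.5 progenitors, namely both bright Six2 probes, Six3 and Eya2, where 15.4% passed, 8.58% as lower. The median log2 change of the members was -1.48, against 0.02 over all probes. From 8 to 19 days 3 were lower, both bright Six2 probes and Six3, where 7.15% passed, 4.69% as lower. The comparisons at 8 and 19 days share the E11.5 arrays, and the last shares its arrays with both.

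**Figure D1:**
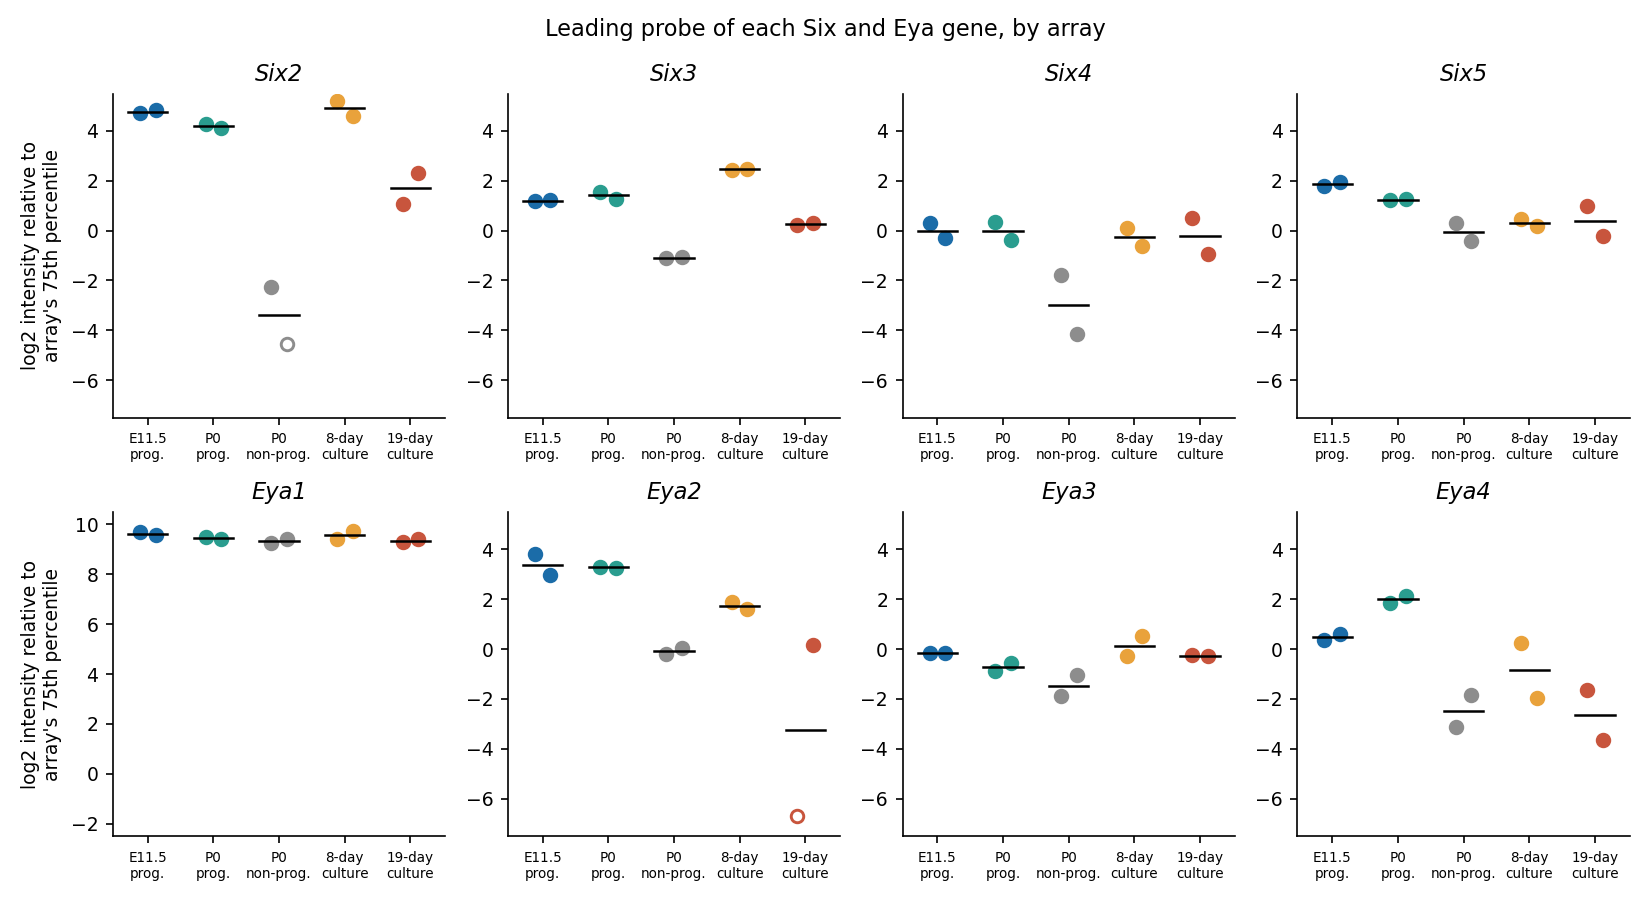
log2 intensity relative to the array's 75th percentile (y axis) of the leading probe of each gene on each of 10 arrays, by group (x axis). Points are arrays, open where not well above background, bars are group means, and the Eya1 panel has a shifted axis of the same length. Six2 and Six3 are lowest in P0 non-progenitors, Eya2 falls to -6.70 on 1 of the 19-day arrays, and Eya1 stays between 9.24 and 9.74.

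Six2, the gene the reporter is named for and the regulator that defines these progenitors, separated the sorted fractions. Its leading probe read 4.70 and 4.82 in E11.5 progenitors, 4.27 and 4.11 in P0 progenitors, and -2.26 and -4.55 in P0 non-progenitors. It read 5.21 and 4.61 in 8-day culture and 1.06 and 2.32 in 19-day culture. The GFP-negative arrays were lowest and did not overlap with any other group, and the 19-day arrays lay between them and the rest. The cells were sorted on a Six2 reporter, so the difference at birth checks the sort. Its size was 193-fold (log2 change 7.59 ± 0.71 SE, adjusted p = 0.00198). Only 1 of the 2 GFP-negative arrays was well above background, and the change was 5.87 to 8.74 over the 21 alternatives, which all kept the call.

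The second Six2 probe, chr17:86083986-86084045, followed the first with less spread between replicates. It read 3.95 and 4.15 at E11.5, 3.06 and 3.02 in P0 progenitors, -4.34 and -3.85 in P0 non-progenitors, 4.08 and 3.92 at 8 days, and 0.06 and 0.69 at 19 days. The sorted fractions at birth differed 141-fold (log2 change 7.14 ± 0.28 SE, adjusted p = 0.000323), with 1 GFP-negative array well above background. The third probe, chr17:86082307-86082366, was dim and had the same order of group means as the second. It read -1.79 and -2.67, -3.31 and -3.33, -4.53 and -4.65, -2.99 and -2.17, and -4.20 and -3.23 in the same order of groups, with neither GFP-negative array well above background. At birth it was at least 2.31-fold higher in progenitors (adjusted p = 0.224), a bound set by the dimmest probe of each array that was still well above background. It passed in none of the 5 main comparisons.

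At 8 days of culture Six2 did not pass against the starting cells. The change was 0.15 on the leading probe (95% interval -1.50 to 1.80, adjusted p = 0.948) and -0.05 on the second (-0.70 to 0.60, adjusted p = 0.954). Within slide 1, which holds 1 of the 8-day arrays, these were 0.45 and 0.03. Against P0 progenitors the 8-day arrays were higher on both probes without passing (0.72, adjusted p = 0.645, and 0.96, adjusted p = 0.119). P0 progenitors themselves read -0.57 (adjusted p = 0.732) and -1.01 (adjusted p = 0.107) relative to E11.5 progenitors.

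Six2 fell between 8 and 19 days but stayed above the GFP-negative fraction. The second probe was 12.8-fold lower at 19 days than at E11.5 (log2 change -3.67 ± 0.28 SE, adjusted p = 0.000454) and 12.3-fold lower than at 8 days (-3.62 ± 0.28 SE, adjusted p = 0.00162). The first of these calls held in all 19 alternatives, with a slide block included (-3.51, adjusted p = 0.0217). The second held in 18 of 20, and within slide 2, which holds only 1 of the 8-day arrays, the change was -3.54 (adjusted p = 0.216). On the leading probe the falls were 8.39-fold (adjusted p = 0.0265) and 9.31-fold (adjusted p = 0.0374), and these calls were lost in 7 of 20 and 14 of 21 alternatives. Each was lost without either E11.5 or either P0 progenitor array, and without 19-day replicate 1 (-2.44, adjusted p = 0.143, and -2.59, adjusted p = 0.188). The second was also lost without either 8-day array and without 19-day replicate 2. The slide block gave -2.46 (adjusted p = 0.351) and -2.92 (adjusted p = 0.142), and slide 2 alone -2.92 for the second. Relative to P0 non-progenitors the 19-day arrays were 34.1-fold higher on the leading probe (adjusted p = 0.00626) and 22.2-fold higher on the second (adjusted p = 0.000273). The order of levels was thus 8-day culture, E11.5 and P0 progenitors without a passing difference among them, then 19-day culture, then P0 non-progenitors. The step from P0 progenitors to 19-day culture passed on the second probe (adjusted p = 0.0022) and not on the leading one (adjusted p = 0.0651).

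Six3 was measurable in every group and peaked in 8-day culture. Its leading probe read 1.17 and 1.22 in E11.5 progenitors, 1.54 and 1.28 in P0 progenitors, -1.11 and -1.07 in P0 non-progenitors, 2.45 and 2.46 in 8-day culture, and 0.23 and 0.30 in 19-day culture. It was well above background on all 10 arrays, and no group overlapped another, with E11.5 and P0 progenitors closest together. The GFP-positive cells at birth exceeded the GFP-negative ones 5.65-fold (a log2 difference of 2.50 ± 0.21 SE, adjusted p = 0.00151), a call kept in all 22 alternatives. Markers of the eye and forebrain, where Six3 is best known, were read beside it. Rax, Vax1 and Lhx2 were tested, and none passed at birth.

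The rise of Six3 at 8 days was 2.39-fold over E11.5 progenitors (log2 change 1.26 ± 0.21 SE, adjusted p = 0.0237) and 2.07-fold over P0 progenitors (adjusted p = 0.0416). The 8-day arrays lie on different slides and read within 0.01 of each other. The size was 1.26 with a slide block (adjusted p = 0.0663), within slide 1 (adjusted p = 0.0879) and in a fit of both groups alone (adjusted p = 0.163). The call was also lost without either array of E11.5 progenitors, P0 progenitors or 8-day culture, where the changes were 1.23 to 1.29 and the adjusted p 0.0514 to 0.0785. After the rise Six3 was 4.58-fold lower at 19 days than at 8 days (log2 change -2.19 ± 0.21 SE, adjusted p = 0.00273). This call was kept in 20 of 22 alternatives, the exceptions being a fit of both groups alone (adjusted p = 0.0764) and slide 2 alone (-2.20, adjusted p = 0.216). Against E11.5 progenitors the 19-day level was 1.91-fold lower (-0.94 ± 0.21 SE, adjusted p = 0.0233). That call was lost with a slide block (-0.94, adjusted p = 0.204), in a fit of both groups alone (adjusted p = 0.122) and without either E11.5 or either 19-day array (-0.97 to -0.90, adjusted p 0.0651 to 0.101). The 19-day arrays still lay 2.56-fold above P0 non-progenitors (adjusted p = 0.00939). The levels therefore ran from 8-day culture through P0 and E11.5 progenitors, which did not pass against each other (0.21, 95% interval -0.28 to 0.70, adjusted p = 0.658), to 19-day culture and P0 non-progenitors.

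The other Six3 probe, chr17:86030070-86030129, was not well above background on any array. It lies 6.7 kb from the leading probe and read -6.56 to -4.38, so it gave no level to compare. The Six3 values therefore rest on 1 probe.

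**Figure D2:**
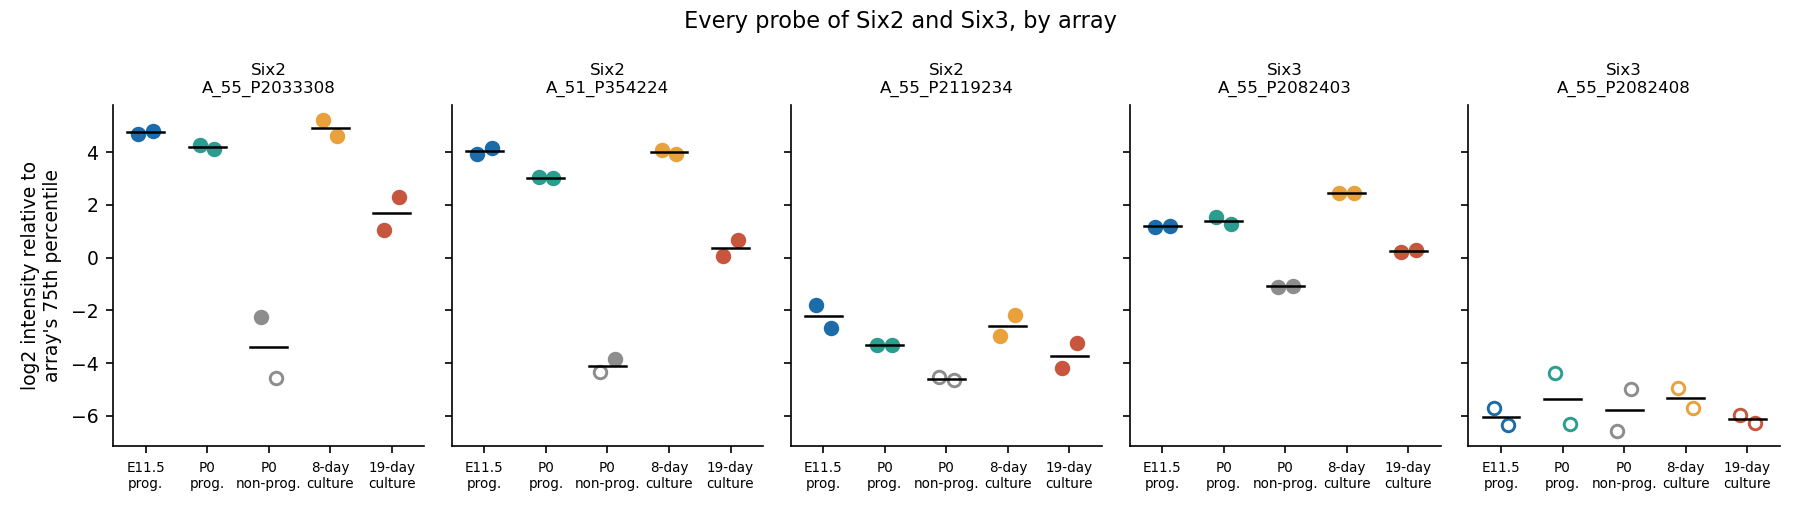
log2 intensity relative to the array's 75th percentile (y axis) of the 3 Six2 probes and the 2 Six3 probes on each of 10 arrays, by group (x axis), with group means as bars and open points where not well above background. The first and second Six2 probes share their pattern over the groups, the third is dim, and the second Six3 probe is at background.

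Six2 and Six3 are neighbours on chromosome 17, with their leading probes 60.3 kb apart on opposite strands and 0 RefSeq genes between them on GRCm38.p6. The probes within 300 kb of the leading Six2 probe, 17 in all, were read for that reason and chosen by position after their values were seen. Of the 3 probes for Six3os1, the antisense gene beside Six3, 2 were never above background, and the third read -3.14 to -1.56 with no passing difference among groups (adjusted p = 0.682 in limma's F test). The array also holds 3 probes that the design names by a region beyond Six2, lying within chr17:86092349-86093123, on the strand opposite to Six2 and 8.7 to 9.4 kb (8715 to 9430 bases) from its leading probe. The first of these read 1.25 and 1.91 at E11.5, 1.30 and 1.55 in P0 progenitors, -4.27 and -4.18 in P0 non-progenitors, 1.45 and 1.57 at 8 days and -3.26 and -3.23 at 19 days (F test adjusted p = 0.000181). It was high where Six2 was high, and it was lower at 19 days than at 8 days. The second read 5.5 and 5.35, 4.29 and 3.93, 2.56 and 2.70, 5.48 and 6.07, and 3.26 and 3.51 in the same order (adjusted p = 0.000722). The third read 4.73 and 4.74, 3.26 and 2.51, -1.54 and -6.12, 5.05 and 5.39, and -0.50 and 1.30 (adjusted p = 0.0102). All 3 were lowest in P0 non-progenitors. The other two were highest in E11.5 progenitors and 8-day culture, while for the first those groups overlapped with P0 progenitors. Beyond Six3os1, Camkmt read -4.25 to -0.77 with no passing difference (adjusted p = 0.321). Of 3 probes of a second region on the other side, 136286 bases or more from the leading Six2 probe, 1 passed the F test (adjusted p = 0.0243), 1 did not (adjusted p = 0.94) and 1 was not tested. The one that passed read 1.82 and 0.81 at E11.5, 0.97 and 1.14 in P0 progenitors, -2.60 and -2.07 in P0 non-progenitors, 0.04 and 0.86 at 8 days, and -2.71 and -0.49 at 19 days, so that its GFP-negative and 19-day arrays overlapped.

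**Figure D3:**
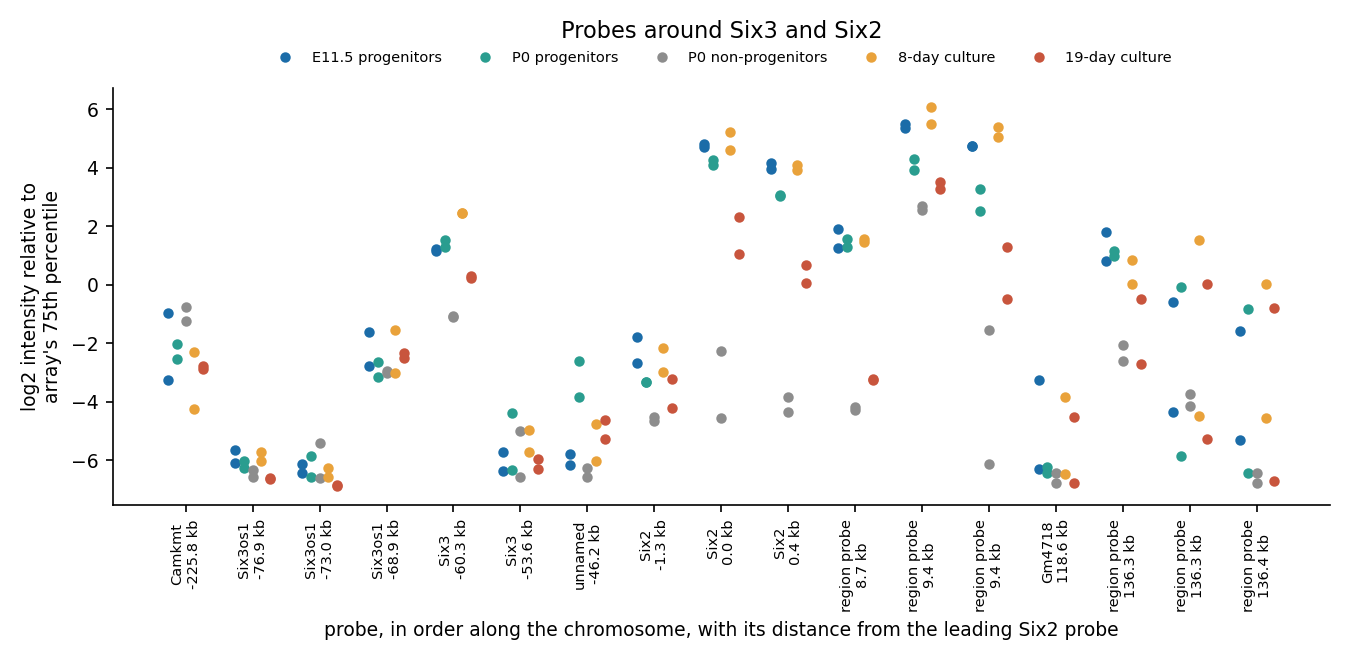
log2 intensity relative to the array's 75th percentile (y axis) of the 17 probes within 300 kb of the leading Six2 probe, in order along the chromosome with their distance from it (x axis). Each point is 1 array, coloured by group. The bright Six2 probes and the 3 region probes next to them are lowest in P0 non-progenitors (grey), while Six3os1 and Camkmt show no such order. The nearest of the region probes further out is low in both P0 non-progenitors and 19-day culture.

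Because Six2 and Six3 were both higher in the GFP-positive cells at birth and both lower at 19 than at 8 days, the 250 bases before their RefSeq starts are shown, 5′ to 3′ on the gene's strand. The Six2 window is chr17:85688255-85688504 (minus) and the Six3 window chr17:85620584-85620833 (plus), on GRCm38.p6. Capitals mark the GC box GGGCGG, searched on both strands.

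Six2: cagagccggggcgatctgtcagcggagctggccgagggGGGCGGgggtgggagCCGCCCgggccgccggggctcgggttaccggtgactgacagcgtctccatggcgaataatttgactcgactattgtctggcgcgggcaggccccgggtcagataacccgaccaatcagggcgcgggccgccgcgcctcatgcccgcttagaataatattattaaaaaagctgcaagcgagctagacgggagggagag
Six3: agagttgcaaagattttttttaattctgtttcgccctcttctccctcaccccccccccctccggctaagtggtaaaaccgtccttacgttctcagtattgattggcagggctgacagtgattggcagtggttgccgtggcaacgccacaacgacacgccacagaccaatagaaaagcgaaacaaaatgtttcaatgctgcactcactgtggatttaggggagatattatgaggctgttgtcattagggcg

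Six2 had 2 such boxes, starting 212 and 197 bases before the start, and Six3 had none. Of 32851 RefSeq promoter windows of the same length, 32.7% held one. Neither window held TATAAA (12.4% of windows) or TCAGGTT, the core of the MEF3 motif that this family binds (3.49%), also on both strands. Of the other members with an entry only Six4 had a TCAGGTT match, 97 bases before a start. The Six2 window was 64.8% G and C and the Six3 window 48.8%, against a median of 52.4%. A match describes these letters only.

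Six4, a homeodomain factor with roles in muscle and kidney, was low in the GFP-negative cells and level elsewhere. It read 0.30 and -0.31 at E11.5, 0.36 and -0.36 in P0 progenitors, -1.79 and -4.15 in P0 non-progenitors, 0.10 and -0.60 at 8 days, and 0.50 and -0.93 at 19 days. The GFP-negative arrays lay below all others, and the remaining 8 overlapped. At birth progenitors read 2.97 ± 0.81 SE higher on the log2 scale, which missed the threshold (adjusted p = 0.0775) and passed without P0 non-progenitors replicate 1 (4.15, adjusted p = 0.0433). Against the same GFP-negative cells E11.5 progenitors read 7.78-fold higher, which passed (adjusted p = 0.0478). These groups differ in age as well as in GFP, and the 2 cannot be told apart. In that comparison 15.6% of all probes passed. In it 6 member probes were higher, the 3 of Six2 and those of Six3, Six4 and Six5. In culture the changes of Six4 against E11.5 progenitors were -0.24 (95% interval -2.13 to 1.66) at 8 days and -0.21 (-2.10 to 1.69) at 19 days.

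Six5, known from the locus of myotonic dystrophy, was highest in the freshly sorted progenitors. It read 1.77 and 1.96 at E11.5, 1.22 and 1.26 in P0 progenitors, 0.30 and -0.40 in P0 non-progenitors, 0.47 and 0.18 at 8 days, and 0.97 and -0.21 at 19 days. Both E11.5 arrays lay above all others, and the culture arrays overlapped with the GFP-negative ones. Six5 was 3.77-fold higher in E11.5 progenitors than in P0 non-progenitors, which also differ in age (log2 change 1.91 ± 0.42 SE, adjusted p = 0.0208). Its differences from E11.5 progenitors were -1.54 ± 0.42 SE at 8 days (adjusted p = 0.0871) and -1.48 ± 0.42 SE at 19 days (adjusted p = 0.0514). Neither passed. Without 19-day replicate 1 both did (-1.54, adjusted p = 0.049, and -2.07, adjusted p = 0.024), and without 19-day replicate 2 the first did. The 19-day change passed in 6 of 21 alternatives, and a slide block gave -1.19 (adjusted p = 0.443).

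Eya1, the Eya gene that the kidney requires to form, could not be followed with its probe. The probe read 9.68 and 9.58, 9.48 and 9.42, 9.24 and 9.40, 9.43 and 9.74, and 9.29 and 9.41 in E11.5 progenitors, P0 progenitors, P0 non-progenitors, 8-day culture and 19-day culture. These levels were among the highest on the array, with 29 of 39819 tested probes (0.0728%) averaging more, and no comparison passed. The 19-day change against E11.5 progenitors, -0.28 (adjusted p = 0.126), passed without 8-day replicate 1 (adjusted p = 0.0464) or replicate 2 (adjusted p = 0.0465), and turned to 0.11 under quantile normalization. As the sequence above shows, the probe is largely a repeat, with an uninterrupted run of 34 of its 60 bases. No other member has such a run. The array holds 25 probes with a run of alternating T and G of at least 30 bases, Eya1 among them. These probes carry 23 gene names, among them Luc7l2, Trim25 and Ephb3, and 2 are without a gene name. Their mean levels lay between 9.30 and 10.06 (median 9.57), and the median range over the 10 arrays was 0.52. Over all tested probes the median level was -1.46 and the median range 2.13. Of the 25 repeat probes 1 passed the F test over the 5 groups, which is 4%, against 21.2% of all probes. Of the 29 probes brighter than the Eya1 probe 16 were repeat probes. The Eya1 probe thus sat inside the narrow band of the repeat probes, and its flat reading is not used as a level of Eya1.

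**Figure D4:**
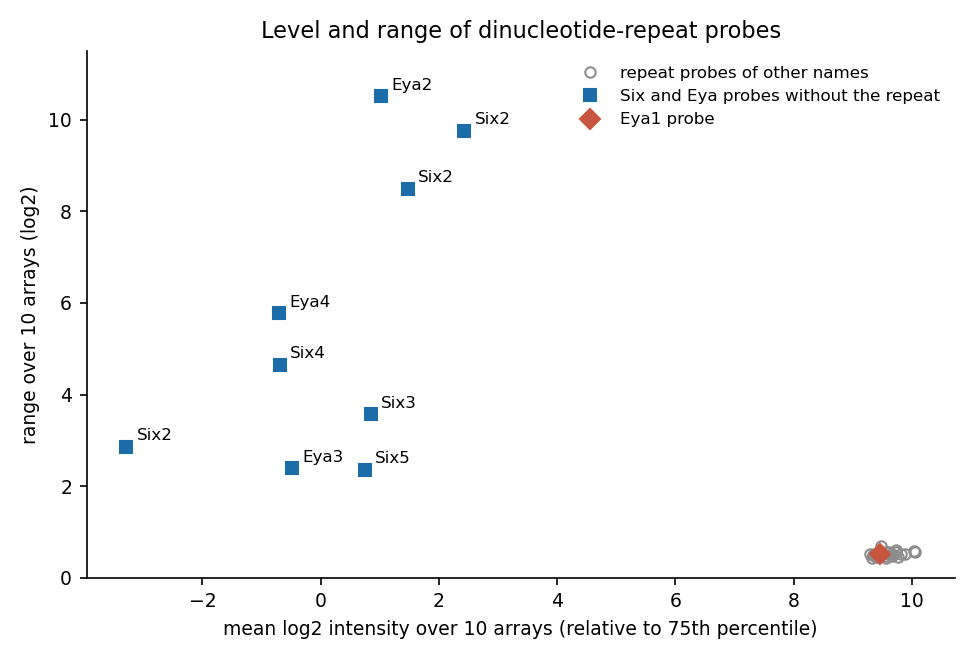
Mean log2 intensity over 10 arrays relative to the 75th percentile (x axis) against the range over the arrays (y axis). Shown are 25 probes with a run of alternating T and G of at least 30 bases (circles, Eya1 as a diamond). The other 9 tested Six-Eya probes are squares. The repeat probes form 1 cluster between 9.30 and 10.06, with the Eya1 probe inside it.

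Eya2, a coactivator also known from muscle and cranial placodes, was high in the freshly sorted progenitors and lower elsewhere. It read 3.81 and 2.97 at E11.5, 3.31 and 3.25 in P0 progenitors, -0.20 and 0.05 in P0 non-progenitors, and 1.87 and 1.60 at 8 days. At 19 days replicate 1 read -6.70, not well above background, and replicate 2 read 0.18. The 4 progenitor arrays lay above all others, the 8-day arrays came next, and the 19-day replicates lay far apart. Against E11.5 progenitors the 19-day change was -6.65 ± 1.80 SE (adjusted p = 0.0463). It was -3.21 (adjusted p = 0.00663) without 19-day replicate 1 and -10.09 without replicate 2, so its size rests on 1 array. The call was lost in 15 of 20 alternatives, with a highest adjusted p of 0.356 under the slide block.

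The spread of the 19-day arrays entered every test of Eya2, since the groups share 1 estimate. At birth progenitors read 3.36 higher (10.2-fold), which did not pass (95% interval -0.84 to 7.55, adjusted p = 0.364). The same change passed without 19-day replicate 1 (adjusted p = 0.00417) or replicate 2 (adjusted p = 0.00472), in a fit of both groups alone (adjusted p = 0.00923) and on slide 1 alone (adjusted p = 0.00983). The 8-day fall against E11.5 progenitors, -1.65 (adjusted p = 0.698), likewise passed without 19-day replicate 1 (adjusted p = 0.0419) or replicate 2 (adjusted p = 0.0476).

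Eya4, known from hearing and heart disease, was the 1 Eya gene that passed at birth. It read 0.37 and 0.62 at E11.5, 1.85 and 2.13 in P0 progenitors, -3.14 and -1.84 in P0 non-progenitors, 0.26 and -1.97 at 8 days, and -1.65 and -3.65 at 19 days. P0 progenitors were highest on both arrays, and the 19-day arrays overlapped with the GFP-negative ones. At birth Eya4 was 22.3-fold higher in the GFP-positive cells (log2 change 4.48 ± 0.88 SE, adjusted p = 0.0258). The call was kept in 18 of 22 alternatives and lost when any of the 4 arrays compared was left out (3.83 to 5.13, adjusted p 0.0726 to 0.143). P0 progenitors read 1.5 above E11.5 progenitors (95% interval -0.57 to 3.56, adjusted p = 0.434). At 19 days Eya4 was 24.9-fold lower than in P0 progenitors (-4.64 ± 0.88 SE, adjusted p = 0.0174). These groups shared no slide, and no alternative was run for this pair. Against E11.5 progenitors the change was -3.14 (adjusted p = 0.0523), which passed in 6 of 21 alternatives, and with a slide block -0.91 (adjusted p = 0.758).

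Eya3, a broadly expressed Eya phosphatase, had the smallest span of group means, 1.59, among the tested members other than Eya1. It read -0.15 and -0.14, -0.89 and -0.54, -1.88 and -1.04, -0.26 and 0.52, and -0.25 and -0.27 in the order of groups used above. The GFP-negative arrays were lowest. The 1 comparison that passed was 8-day culture against P0 non-progenitors (3.01-fold higher, adjusted p = 0.0409), where 5 member probes and 11.4% of all probes passed, the others being the 3 of Six2 and that of Six3.

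**Figure D5:**
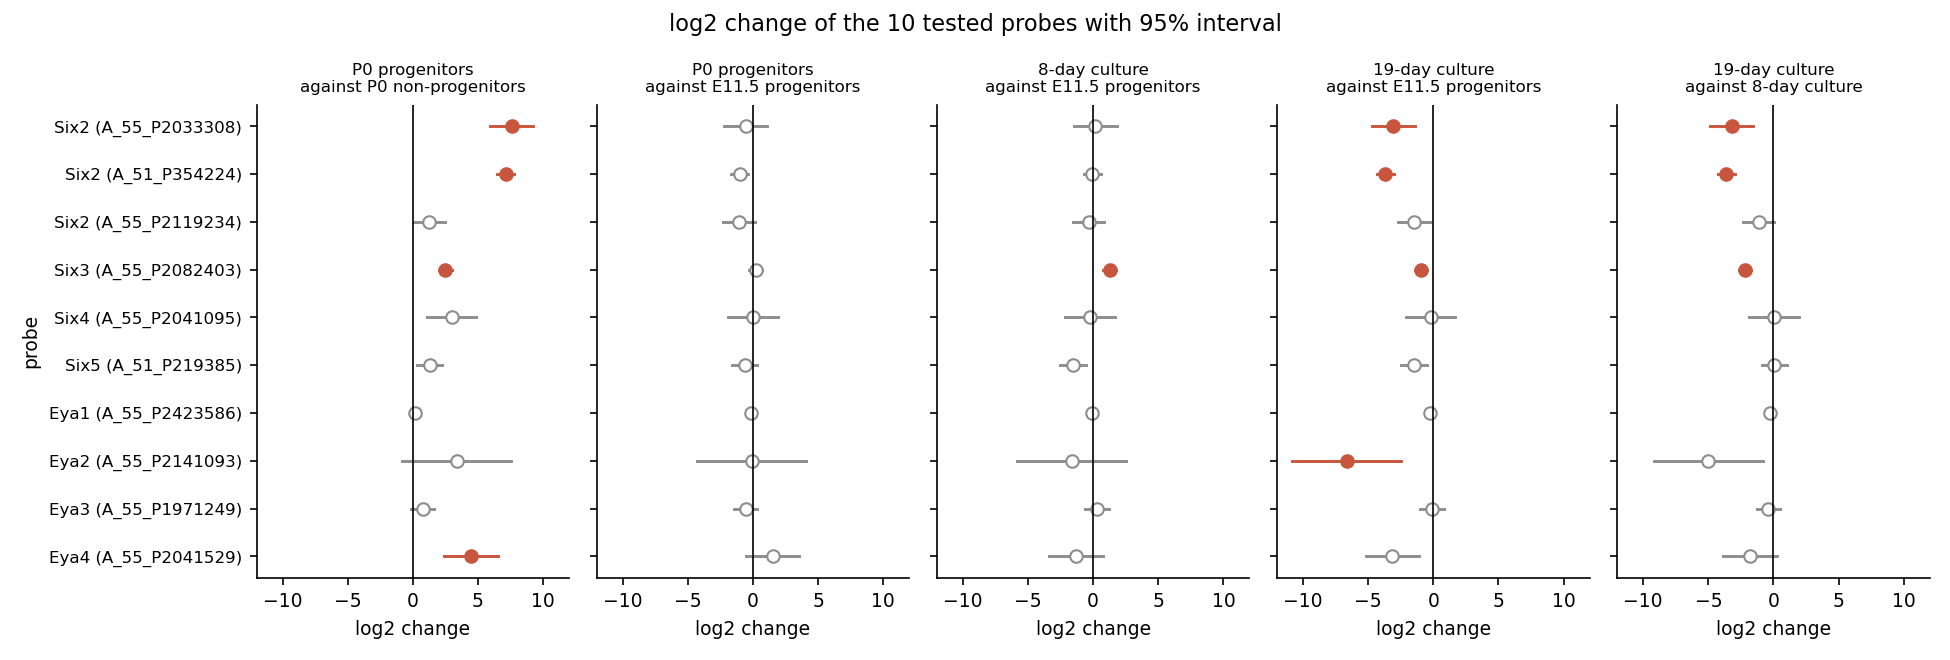
log2 change (x axis) with its 95% interval for the 10 tested probes (y axis) in the 5 main comparisons, filled where the adjusted p is under 0.05. The passing changes are all higher in P0 progenitors against P0 non-progenitors and all lower at 19 days, Six3 is the 1 filled point at 8 days, and the Eya2 intervals are the widest.

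Across the remaining pairs of groups 3 member probes were lower in 19-day culture than in P0 progenitors (10.8% of all probes passed), those being the second Six2 probe, Six3 and Eya4. In 8-day culture against P0 progenitors only Six3 passed (3.5% of all probes). In 19-day culture against P0 non-progenitors 3 were higher (7.79% of all probes), both bright Six2 probes and Six3. No alternatives were run for these pairs, and 19-day culture shared no slide with either P0 group. The F test over the 5 groups passed 4 of 10 members, both bright Six2 probes, Six3 and Eya4, where 21.2% of all probes passed. In all, 9 of the 10 tested probes passed in at least 1 pair of groups, all but that of Eya1. The share of all tested probes that did so was not computed, so this count cannot be set against a background.

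Other genes of the Six-Eya network were read from a list of 25 names, of which 24 were tested. It holds regulators and partners in the cap mesenchyme (such as Pax2, Sall1, Osr1, Wt1 and Hoxa11), targets (such as Gdnf, Cited1, Meox1 and Fgf20), the Tle corepressors and the Dach genes. At birth 9 were higher in progenitors and none lower, with a median change of 1.27 against 0.12 over all probes. Of all probes 7.09% passed there, 3.64% as higher. Those 9 were Pax2, Osr1, Wt1, Hoxa11, Cited1, Fgf20, Wnt4, Mycn and Tle2. Cited1, a marker of the uninduced cap, read 6.03 and 5.53 against 1.33 and 0.45. Between P0 and E11.5 progenitors 1 was higher (Wnt4) and 1 lower (Meox1), where 3.47% of all probes passed.

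In 8-day culture 3 network genes were lower than at E11.5 and 2 higher, beside Six2 values that did not pass. Of all probes 4.48% passed there, 2.65% as higher. Pax2, which acts with Eya1 and Hox11 proteins at the Six2 and Gdnf promoters, read 4.56 and 4.21 at E11.5 and -1.40 and -1.04 at 8 days (log2 change -5.60 ± 0.23 SE, adjusted p = 0.000322). Dach1, a corepressor partner of the Six-Eya proteins, read 4.85 and 4.61 against 3.76 and 3.77 (adjusted p = 0.0389). Tle1, a Groucho corepressor that this family recruits, rose from 1.93 and 1.58 to 4.33 and 4.50 (log2 change 2.66 ± 0.21 SE, adjusted p = 0.00238). At 19 days 11 of the 24 were lower than at E11.5 and 2 higher (median -0.95 against 0.02), where 15.4% of all probes passed, 8.58% as lower. From 8 to 19 days 6 were lower and none higher, where 7.15% passed, 4.69% as lower. Sall1, which partners Six2 in progenitors, read 3.85 and 4.36 at E11.5, 1.71 and 2.09 at 8 days, and -2.90 and -0.27 at 19 days.

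Markers of other cell types moved with several of these comparisons, and their part in the member values was not tested. At birth all 5 endothelial genes, 5 of 6 stromal, 3 of 4 tested erythroid and 3 of 5 leukocyte genes were lower, and 4 of 8 nephron progenitor genes were higher, in the GFP-positive cells. Of all probes 7.09% passed there. The mean of the endothelial list was 2.00 and 1.87 in P0 non-progenitors and -3.87 to -2.54 on the other arrays. That of the stromal list was 2.90 and 2.94 there, -1.36 to -0.78 in the freshly sorted progenitors and 8-day culture, and 1.15 and 0.87 at 19 days. Its genes did not move together. Against E11.5 progenitors 3 were higher at 19 days (Col3a1, Pdgfra and Pdgfrb) and 2 lower (Foxd1, log2 change -6.95, and Tcf21, -1.17). At 8 days 2 were higher (Col3a1 and Pdgfra) and 1 lower (Foxd1, -7.91). Of 4 tested erythroid genes 3 (Hbb-y, Hba-a1 and Hbb-b2) were lower than at E11.5 at both 8 and 19 days, and Alas2 did not pass. Hbb-y read 5.51 and 3.87 at E11.5, -2.12 and -4.08 at 8 days, and -4.42 and -4.39 at 19 days. Among skeletal muscle genes 3 of 7 tested were higher at 8 days than at E11.5, where 2.65% of all probes passed as higher. The 3 were Actc1, Tnnt1 and Tnnt3. Myod1 (log2 change 0.46, adjusted p = 0.245), Myog (1.81, adjusted p = 0.188), Acta1 and Myh3 did not pass. Tnnt3 read 0.28 and 1.03 at 8 days, below its 1.61 and 1.67 in P0 progenitors. Actc1 read 1.17 and 2.10 at 8 days and was not well above background on the other 8 arrays, while Myf5, Myf6 and Ckm were not well above background on any array. The nephron progenitor list, none of whose genes was used for the sort, had 7 of 8 genes lower at 19 days than at E11.5 and 1 of 8 lower at 8 days. Of all probes 15.4% and 4.48% passed in these comparisons. Its mean was 1.69 and 2.11 at E11.5, 2.23 and 2.07 in P0 progenitors, and -1.27 and -1.30 in P0 non-progenitors. In culture it was -0.55 and 0.40 at 8 days, and -3.58 and -2.24 at 19 days, the lowest of the groups. All 8 of its genes were well above background on each freshly sorted progenitor array, and 7 of 8 on each P0 non-progenitor array. On the culture arrays 6 and 8 were at 8 days, and 4 and 5 at 19 days.

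Genes whose pattern was most like that of a member were found by the root mean square difference of values centred on their own means over the 10 arrays, for each leading probe whose group means spanned at least 2 log2 units. For Six3 the nearest were Fzd2 (0.32) and Fzd7 (0.39), which encode Wnt receptors, Vcan (0.43), the matrix proteoglycan versican, Acsl3 (0.45) and AW556556 (0.48). Fzd2 read 3.16 and 3.35, 3.77 and 4.06, 1.1 and 0.98, 4.21 and 4.63, and 1.76 and 2.12 over the groups. Its peak at 8 days follows from its choice by likeness to Six3. For Six2 they were AW551984 (1.33), Actn3 (1.47), Fut10 (1.55), C2cd4b (1.66) and Osr1 (1.68), a network gene of the kidney mesenchyme. For Six4 they were Cdyl (0.58), Alkbh2 (0.58), Gas1 (0.62), Phf21a (0.63) and Scn2b (0.66). For Eya2 they were Col26a1 (0.79), Bend4 (0.90), Capn6 (1.00), Gldc (1.15) and Sall1 (1.18). The measure favours genes that share the low value of Eya2 on 19-day replicate 1, so their own gap between the 19-day replicates, such as -5.93 against 1.38 for Bend4, follows from the choice. For Eya4 they were Dcx (0.71), Xrcc3 (0.79), Hoxc4 (0.88), Slc2a4 (0.94) and Zfp783 (0.94). Among the members themselves Six2 lay nearest to Six3 (2.15) and Six4 (2.20), and Six3 nearest to Eya3 (0.85) and Six4 (1.00). The measure grows with the size of a gene's changes, so distances of different members cannot be set against each other.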

How the data were processed

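The arrays were 10 single-colour Agilent mouse arrays scanned in Cy3. Per the file headers, the authors deposited scanner intensities. The submitters' processing notes name Feature Extraction 11.5.1.1. The processed signal is background-subtracted within each array, per the file headers, and the authors' scaling between arrays is not given in the sources used here. Probe positions are those of the design on mm9, per the file headers. For replicate 2 of the P0 progenitors the values carry 3 significant digits and 62 names are altered, so names were taken from an E11.5 file. Age P0 follows the labels; the names of the data say E19.5.

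Each array's log2 processed intensity was reduced by its 75th percentile over non-control spots, outlier spots were set to missing, and repeat spots were averaged by probe. In R 4.3.3 with limma 3.58.1, group means were estimated from the 10 arrays together, with moderation by an intensity trend, 5 residual and 2.52 prior degrees of freedom. Tests were 2-sided, with Benjamini-Hochberg adjustment over 39819 probes within each of 10 comparisons. The 5 main ones and the F test have alternatives. The members, lists and tests were chosen with earlier results of these data known. Genes are named as members, as listed genes or as the 5 nearest patterns, and neighbouring probes were named after their values were seen. Other Six family genes are not reported here.

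On simulated data for 8-day culture against E11.5 progenitors, with 39819 probes, the test recovered 2 of 67 probes at a change of 1 log2 unit, 15 of 67 at 2 and 33 of 66 at 4. It made 2 false calls. Only those probes were given a change, far fewer than the 1783 that passed in the data. The adjustment is stricter with fewer changed probes, so the recovery need not carry over. Promoter windows came from RefSeq, where 6 of 8 members matched. Alternatives were quantile normalization, normexp background correction (offset 50), other filters, other moderation, a replicate block, a slide block, the groups compared alone, 1 probe per name and leaving out each array. A floor on low values and fits to 1 slide were added after seeing the data.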

Additional observations from a re-analysis of the deposited data

How the results depend on the processing

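Counts of member probes that passed moved by more than 1.5 times under some alternatives. With a filter for probes above background on all arrays, 6 members were tested, and 2 passed in P0 progenitors against P0 non-progenitors and 1 in 19-day against 8-day culture, since the Six2 probes left the test. With a slide block 0 passed at 8 days and 1 at 19 days against E11.5 progenitors. With only the groups compared in the fit the counts were 0 at 8 days, 1 at 19 days and 0 for 19-day against 8-day culture. With a floor on low values the F test passed 7. Slide 1 alone gave 0 at 8 days against E11.5 progenitors, and slide 2 alone 0 for 19-day against 8-day culture. Both of these fits and the floor were added after seeing the data, and the cause of these changes was not tested beyond the smaller number of arrays or probes.

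With any 1 array left out, the counts were 3 to 5 for the sorted fractions at birth, 0 to 0 for P0 against E11.5 progenitors, 0 to 3 and 1 to 5 for 8-day and 19-day culture against E11.5 progenitors, 2 to 3 for 19-day against 8-day culture and 3 to 6 in the F test. Where this leaves a group with 1 array, that array is assumed to vary like the other groups.

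Under quantile normalization the 19-day change of Eya1 turned from -0.28 to 0.11 (adjusted p = 0.0378), and the cause was not tested. Over the single probes 942 values kept their direction and their side of the threshold, 59 no longer passed, 25 came to pass and 33 moved without passing.

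With a replicate block the counts were 5, 0, 1, 4 and 2 in the 5 main comparisons and 6 in the F test. Six4 came to pass at birth (2.97, adjusted p = 0.0226) and Six5 at 19 days against E11.5 progenitors (-1.48, adjusted p = 0.0463), while Eya2 no longer passed there (adjusted p = 0.0548), nor the leading Six2 probe between 8 and 19 days (adjusted p = 0.0545). The differences between replicates correlated at -0.02 to 0.02 over the 10 pairs of groups, so the probes as a whole showed no pairing by replicate number. This cannot exclude a shared litter or sort, which the labels do not give. Normexp moved the median 19-day change of all probes against E11.5 progenitors from 0.02 to -0.18. Signal over background limited Six2 in P0 non-progenitors, Eya2 at 19 days and the second Six3 probe.

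Over all tested probes the counts moved as well. They were 2824 for the sorted fractions at birth, 1382 for P0 against E11.5 progenitors, 1783 and 6114 for 8-day and 19-day culture against E11.5 progenitors, 2848 for 19-day against 8-day culture and 8460 in the F test. Without an intensity trend the first 3 became 1565, 554 and 757, the count for 19-day against 8-day culture 894 and the F test 5116. With only the groups compared the limma fit called 193 for P0 against E11.5 progenitors, 0 and 1700 for 8-day and 19-day culture against E11.5 progenitors and 0 for 19-day against 8-day culture. A slide block gave 836 and 1919 in culture against E11.5 progenitors, slide 1 alone 700 at 8 days, and slide 2 alone 0 for 19-day against 8-day culture. The filter on all arrays gave 1793 at birth. With 1 array left out the ranges were 773 to 2887, 119 to 1395, 500 to 1554, 3209 to 6251, 1076 to 2943 and 5501 to 8151 in the same order.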
